A study of Mus musculus with 6 samples.

Results

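The genes described here are 10 transcriptional targets of Wnt and beta-catenin signaling, namely Axin2, Lgr5, Glul, Tbx3, Notum, Nkd1, Rnf43, Znrf3, Sp5 and Tcf7, picked by name as known targets among the 55536 genes with raw counts. Their mRNA was compared between tumors of mice given GOx-DOX-LGP, a pH-sensitive lipid-gelatin-protamine nanogel that carries glucose oxidase (GOx, which consumes glucose) and doxorubicin (DOX, which damages DNA), and tumors of untreated mice. All tumors grew from HCA-1, a single murine hepatocellular carcinoma (HCC) line, placed under the liver capsule of male C3H mice aged 6 to 8 weeks. There were 3 control libraries, numbered 5, 6 and 7, and 3 GOx-DOX-LGP libraries, numbered 1, 2 and 5, each from bulk tumor tissue. According to the labels, the nanoparticles were injected into a vein on days 18, 19 and 20, whereas the transcriptome was examined on day 17, 3 h after injection. These days cannot all hold. For tumors given doses on the same 3 days, the study's Supporting Information describes harvest for PCR after the last dose, without a separate day for sequencing. The labels do not state that each library is a separate mouse, so that p-values measure the spread between these libraries.

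Without a Wnt signal, a cytoplasmic complex built on axin and APC marks beta-catenin for destruction. When a Wnt ligand binds Frizzled and LRP receptors, beta-catenin escapes, enters the nucleus and switches on genes together with TCF/LEF factors. Many of these targets feed back on the pathway, since they encode its inhibitors. In normal liver the pathway is active in the hepatocytes around the central vein, where it maintains glutamine synthesis and the pericentral program, and in some liver cancers it is activated by mutation.

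Libraries held 15529940 to 18401178 counts, and the levels below are CPM, counts scaled to a common depth with TMM factors (a factor per library that balances the bulk of genes). The filter on low counts kept 15374 genes for testing. A count of 0 allows up to 3 counts, which are 0.132 to 0.323 CPM, for counting error only. Levels listed by library follow the order controls 5, 6, 7 and treated tumors 1, 2, 5. Control 5 stood apart from the other controls, with a Pearson correlation of log2 CPM across genes of 0.73 with control 6 and 0.66 with control 7, against 0.97 to 0.98 with the GOx-DOX-LGP tumors. Alb, the hepatocyte gene for serum albumin, measured 353 CPM in control 5, 73804 CPM in control 6 and 128244 CPM in control 7, and 733 to 1893 CPM in the treated tumors. The summed level of 10 genes for hepatocyte secreted proteins was 711, 124706 and 200322 CPM in these controls and 1474 to 3640 CPM in treated tumors, and none of the 10 was at 0 in any library. In bulk tissue, fewer cells of a type and less RNA per cell cannot be told apart.

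Most of the Wnt target genes were high in controls 6 and 7 and low in control 5 and in all 3 treated tumors. Tbx3, Notum, Rnf43, Glul, Axin2 and Nkd1 had log2 fold changes between -4.08 and -1.85 in GOx-DOX-LGP against control tumors, whereas Znrf3 (-0.44) and Tcf7 (-0.53) lay nearer to 0. All 8 targets kept by the filter on low counts had a negative log2 fold change, with a median of -2.35, beside a median of 0.02 over all genes tested, although Znrf3 and Tcf7 turned positive when library totals alone set the scale. With edgeR's quasi-likelihood test and adjustment over all genes, 0 of the 8 had an adjusted p under 0.05, as was the case for 0% of all genes tested. At an unadjusted p under 0.05, 4 of the 8 (Glul, Tbx3, Notum and Rnf43) were lower, beside 14.6% of all genes. DESeq2, the other tool named in the methods, called 4 of 9 targets lower (Lgr5, Tbx3, Notum and Rnf43), beside 9.87% of all genes that it adjusted. Lgr5, which edgeR's filter dropped, entered this count through controls 6 and 7, with 77 and 86 counts against 6 to 9 elsewhere. Limma voom with sample quality weights called 7 of 8, all but Tcf7, beside 30.9%. The groups were free of overlap, treated below control, for 1 of the 8 targets, beside 8.31% of all genes tested. Two-sided exact permutation tests on the log2 CPM of the 10 targets gave p between 0.1 and 0.4, where 0.1 is the least that 3 against 3 libraries allow.

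**Figure D1:**
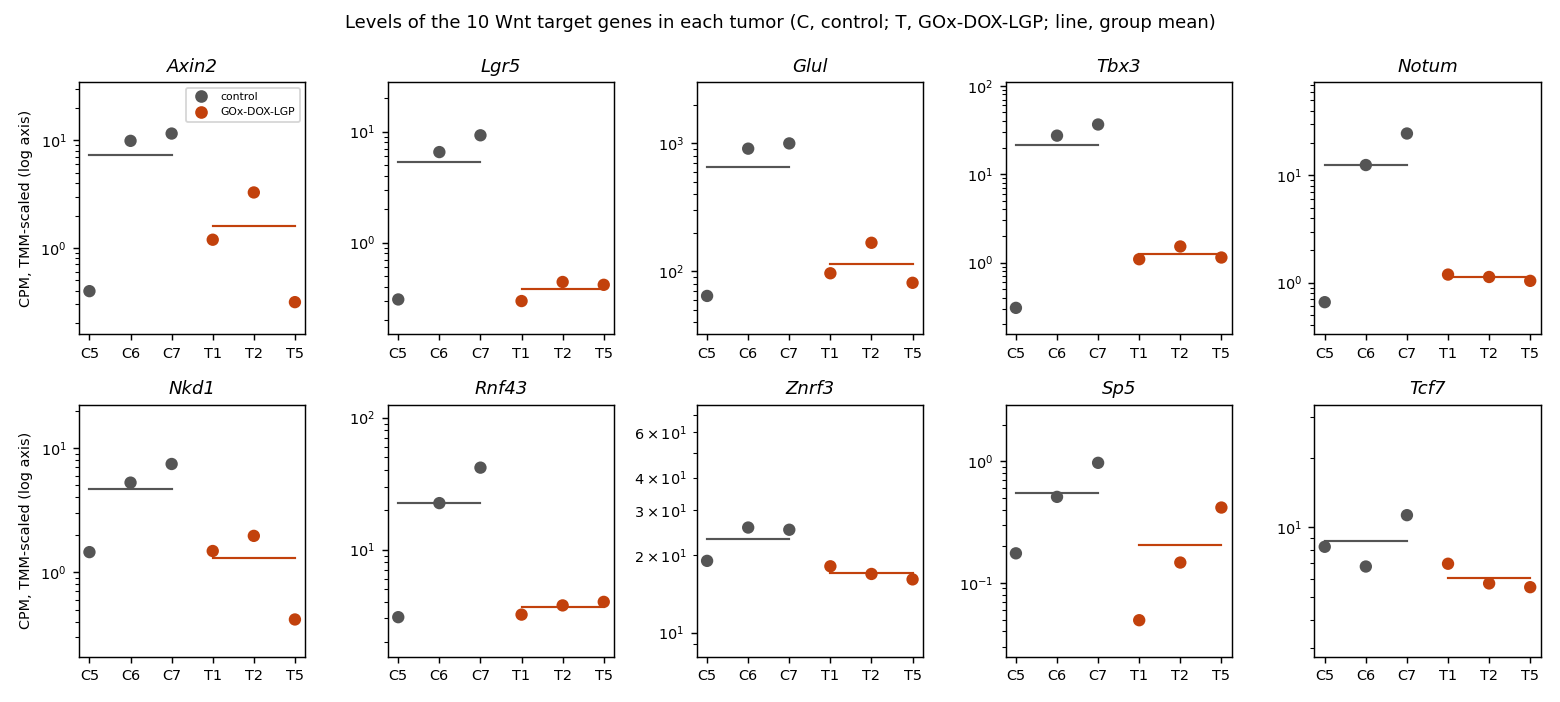
TMM-scaled CPM (log axis, a separate range in each panel) of the 10 Wnt target genes in the 3 control tumors (grey) and the 3 GOx-DOX-LGP tumors (orange); points are single libraries and lines are group means. For Glul, control 5 at 64.2 CPM lies with the treated tumors at 81.3 to 167 CPM, while controls 6 and 7 lie at 908 and 998 CPM.

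The inhibitors that the pathway induces against itself made up 5 of the 10 genes. Axin2 (ENSMUSG00000000142, chromosome 11 of GRCm38, 108920349 to 108950783, plus strand) encodes a scaffold of the destruction complex and is a widely used readout of the pathway. It stood at 0.395 CPM in control 5, 9.92 in control 6 and 11.6 in control 7, and at 1.19, 3.28 and 0.312 CPM in treated tumors 1, 2 and 5. Treated tumors 1 and 2 were thus above control 5, and the lowest value of all was that of treated tumor 5. The log2 fold change was -2.18 (standard error, SE, 1.28, 95% interval -5.28 to 0.92, edgeR adjusted p = 0.392). The noncoding gene Gm11670 overlaps exons of Axin2 on the opposite strand, and since the use of strand in counting is not stated, their reads cannot be told apart.

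For Axin2 and for Sp5, a transcription factor of the same list, the 250 bases before the transcription start are shown, because both are direct readouts of TCF/LEF factors and their proximal sequences differ in the motif these factors bind. Windows of 300 bases (250 before and 50 after a start, RefSeq, GRCm38.p6) were on hand for 6 of the 10 targets, in 8 windows. The core motif CTTTGA was searched with its reverse complement TCAAAG on both strands. Capitals mark its matches in the sequences below, which are written 5′ to 3′ on the strand of the gene (plus for both), at chr11:108920099-108920348 for Axin2 and at chr2:70474673-70474922 for Sp5.
Axin2: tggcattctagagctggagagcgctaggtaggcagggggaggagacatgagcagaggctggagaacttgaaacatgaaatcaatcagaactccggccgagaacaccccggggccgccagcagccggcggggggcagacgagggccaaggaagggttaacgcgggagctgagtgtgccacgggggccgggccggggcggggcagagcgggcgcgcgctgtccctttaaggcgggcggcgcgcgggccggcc
Sp5: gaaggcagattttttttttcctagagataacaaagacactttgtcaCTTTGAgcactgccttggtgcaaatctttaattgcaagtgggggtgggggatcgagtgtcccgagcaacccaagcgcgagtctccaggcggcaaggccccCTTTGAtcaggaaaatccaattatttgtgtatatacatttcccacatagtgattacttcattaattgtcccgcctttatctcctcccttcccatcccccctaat
The Sp5 window held 2 matches, the first 204 bases before the start, and 1 of them extends to the longer form CTTTGAT. No other window of the targets held the core, including those of Axin2, Glul, Nkd1, Rnf43 and Tcf7. Of all 32851 promoter windows of this length, 16% held the core and 3.73% the form CTTTGAT (or ATCAAAG), beside 1 of 8 windows of the targets (12.5%) for either form. A match is a description of these letters and not a measured binding site.

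Nkd1 (ENSMUSG00000031661, chromosome 8, 88521354 to 88594884) encodes a protein that binds Dishevelled and dampens the signal. Its levels were 1.45, 5.26 and 7.43 CPM in controls 5, 6 and 7, beside 1.48, 1.96 and 0.416 CPM in treated tumors 1, 2 and 5. Control 5 lay within the range of the treated tumors. The log2 fold change was -1.85 (SE 0.79, edgeR adjusted p = 0.295).

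Notum (ENSMUSG00000042988, chromosome 11, 120653788 to 120661175) encodes a secreted enzyme that removes the lipid from Wnt ligands. It measured 0.658, 12.5 and 24.6 CPM in the controls in the same order, and its treated tumors lay close together at 1.19, 1.13 and 1.04 CPM. All treated tumors were above control 5 and below controls 6 and 7. The log2 fold change was -3.48 (SE 1.15, edgeR adjusted p = 0.247, DESeq2 adjusted p = 0.0137), and exons of Notumos and Myadml2os overlap it on the opposite strand.

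Rnf43 and Znrf3 encode paired membrane E3 ligases that remove Frizzled receptors from the cell surface, and R-spondins block them through LGR receptors. Rnf43 (ENSMUSG00000034177, chromosome 11, 87662722 to 87735539) stood at 3.07, 22.5 and 41.8 CPM in the controls and at 3.21, 3.77 and 4.01 CPM in treated tumors. Its log2 fold change was -2.61 (SE 0.86, edgeR adjusted p = 0.247, DESeq2 adjusted p = 0.028). Znrf3 (ENSMUSG00000041961, chromosome 11, 5276324 to 5444847) had 19.0, 25.6 and 25.1 CPM in controls and 18.1, 16.9 and 16.1 CPM in treated tumors. It was the target whose groups did not overlap (exact permutation p = 0.1), with a log2 fold change of -0.44 (SE 0.21, edgeR adjusted p = 0.329). This depends on the scaling. With library totals alone, Znrf3 measured 23.5, 19.4 and 14.2 CPM in controls and 22.4, 20.5 and 20.0 CPM in treated tumors, which overlap, and the log2 fold change was 0.14.

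Lgr5 (ENSMUSG00000020140, chromosome 10, 115450311 to 115587780), an R-spondin receptor and marker of stem cells and of hepatocytes near the central vein, had 7 counts in control 5, 77 in control 6 and 86 in control 7. In treated tumors 1, 2 and 5 it had 6, 9 and 8 counts. This corresponds to 0.307, 6.53 and 9.25 CPM in controls and to 0.297, 0.441 and 0.416 CPM in treated tumors. The filter on low counts dropped Lgr5, since only controls 6 and 7 expressed it above a few counts. Without the filter its log2 fold change was -3.67 (SE 1.00, edgeR adjusted p = 0.184), and DESeq2 gave -3.78 (SE 1.07, adjusted p = 0.00792).

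The transcription factors among the targets were Tbx3, Sp5 and Tcf7. Tbx3 (ENSMUSG00000018604, chromosome 5, 119670669 to 119684724), a T-box repressor that beta-catenin induces in liver, had the largest ratio of controls 6 and 7 to control 5 among the 10 targets. It had 0.307 CPM in control 5, 27.3 in control 6 and 36.5 in control 7, and 1.09, 1.52 and 1.14 CPM in treated tumors 1, 2 and 5. The mean of controls 6 and 7 was 104 times the level of control 5 and 25.5 times the mean of the treated tumors. The log2 fold change was -4.08 (SE 1.42, edgeR adjusted p = 0.247, DESeq2 adjusted p = 0.0119). Exons of Tbx3os1 overlap Tbx3 on the opposite strand.

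Sp5 (ENSMUSG00000075304, chromosome 2, 70474923 to 70477729) was close to the limit of detection, with 4, 6 and 9 counts in controls and 1, 3 and 8 counts in treated tumors. No difference was detectable at this depth (log2 fold change without the filter -1.26, SE 0.93, edgeR adjusted p = 0.606). Tcf7 (ENSMUSG00000000782, chromosome 11, 52252371 to 52283014) encodes the factor TCF1, which acts with beta-catenin and is also abundant in naive and stem-like T cells. It measured 8.25, 6.78 and 11.3 CPM in controls 5, 6 and 7, beside 6.97, 5.73 and 5.52 CPM in treated tumors. Treated tumor 1 lay above control 6, so that the groups overlap. The log2 fold change was -0.53 (SE 0.30, edgeR adjusted p = 0.38), and with library totals alone it was 0.04.

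Glul (ENSMUSG00000026473, chromosome 1, 153899944 to 153909723) encodes glutamine synthetase, which detoxifies ammonia around the central vein and is used as a stain for HCC with active beta-catenin. It was by far the most abundant target, with 64.2 CPM in control 5, 908 in control 6 and 998 in control 7, and with 96.5, 167 and 81.3 CPM in treated tumors 1, 2 and 5. The means were 657 ± 515 CPM in controls and 115 ± 46.0 CPM in treated tumors (SD, n = 3 each). Every treated tumor was above control 5 and below the other controls. The log2 fold change was -2.51 (SE 0.97, edgeR adjusted p = 0.268, DESeq2 adjusted p = 0.0575). Of the stretches of 50 bases in Glul transcripts, 11.9% also occur in other genes such as the pseudogene Glns-ps1, and exons of Teddm2 overlap it on the opposite strand, so that a part of its counts is uncertain.

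Per kilobase of exon, the median level of Glul was 273 CPM per kb in controls and 29 in treated tumors. Among the controls it was followed by Notum (5.18), Tbx3 (4.12), Rnf43 (3.43), Znrf3 (3.18), Tcf7 (3.14), Axin2 (1.8), Nkd1 (1.15), Lgr5 (0.636) and Sp5 (0.242). Neighbours in this order overlapped in their range over the 3 controls, except Glul with Notum and Tcf7 with Axin2. In treated tumors Tcf7 (2.18) and Znrf3 (2.14) came after Glul, with ranges of 2.1 to 2.65 and 2.04 to 2.3 CPM per kb that overlap. Rnf43 (0.575), Notum (0.468), Nkd1 (0.325), Axin2 (0.215), Tbx3 (0.173), Sp5 (0.07) and Lgr5 (0.0406) lay lower. Here too neighbours overlapped, apart from Glul with Tcf7, Znrf3 with Rnf43 and Notum with Nkd1, the last by a small margin. Tbx3 thus moved from the third to the eighth place, a description of medians over 3 libraries.

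The size and the direction of the group difference rested on which controls entered. Without control 5, the difference between controls 6 and 7 and the treated tumors was past the threshold for 8 of 9 targets, all lower in treated tumors, beside 25.5% of all genes in that fit. Lgr5 entered this fit through controls 6 and 7 alone, and Tcf7 was the target not called (edgeR adjusted p = 0.194). The log2 fold changes of the 8 ran from -4.63 for Tbx3 (SE 0.27, edgeR adjusted p = 5.12e-05) to -0.54 for Znrf3 (SE 0.18, edgeR adjusted p = 0.0459). Without controls 6 and 7, control 5 alone stood against the treated tumors and was assumed to vary as they do, so that only effect sizes are given. In that fit the log2 fold change was positive for Axin2 and Tbx3 (2.02 each), Glul (0.86), Notum (0.77) and Rnf43 (0.27), and negative for Nkd1 (-0.15), Znrf3 (-0.14) and Tcf7 (-0.43). DESeq2 and voom were not run on these subsets.

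**Figure D2:**
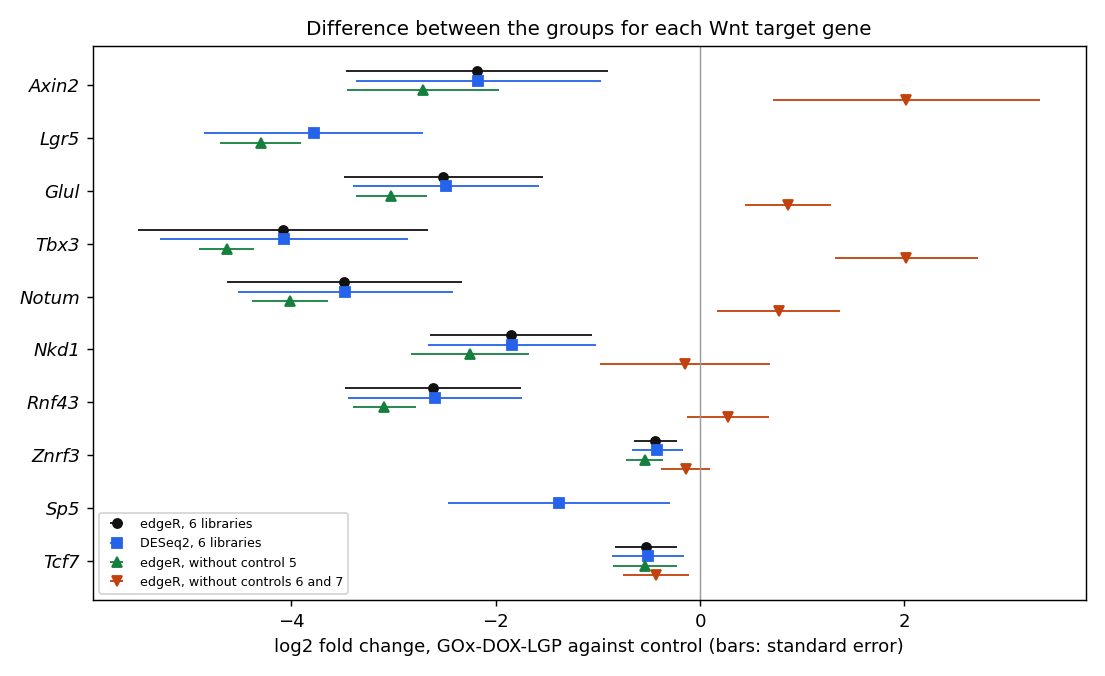
Log2 fold change of GOx-DOX-LGP against control tumors for each Wnt target gene, with bars of 1 standard error, from edgeR on all 6 libraries (circles), DESeq2 (squares), edgeR without control 5 (triangles up) and edgeR without controls 6 and 7 (triangles down). For Tbx3 the estimate moves from -4.63 without control 5 to 2.02 without controls 6 and 7, whereas Tcf7 stays between -0.54 and -0.43 in these 4 fits; a missing symbol means that the gene was not kept in that fit.

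The pattern of the targets ran beside that of liver genes as a whole. All 11 tested genes of 13 on the pericentral list, which depend on beta-catenin in liver, had a negative log2 fold change with a median of -6.20. Periportal genes, which mark the opposite zone, had a median of -5.31 with 10 of 11 negative, and hepatocyte secreted proteins one of -5.33 with 10 of 10 negative. At an unadjusted p under 0.05 in edgeR, 11 of 11 pericentral, 9 of 11 periportal and 10 of 10 secreted protein genes were lower, beside 14.6% of all genes tested. After adjustment DESeq2 called 12 of 12, 10 of 11 and 10 of 10 lower, beside 9.87%, whereas edgeR called 0. The 12 pericentral genes include a gene that edgeR's filter dropped and that only controls 6 and 7 expressed above a few counts. Cyp2c54, a pericentral cytochrome P450 gene, measured 0.219, 340 and 667 CPM in controls, against 1.22 to 3.41 CPM in treated tumors. Slc1a2, a glutamate transporter gene of the same zone, had 0.746, 63.5 and 78.9 CPM in controls and 0.343 to 0.791 CPM in treated tumors. Among the secreted protein genes, Apoa2 (-6.11, SE 2.01) and Apob (-5.86, SE 1.82) had the largest differences. On the periportal side, Cyp2f2 had a log2 fold change of -8.29 (SE 2.57) and Cps1, the entry enzyme of the urea cycle, of -6.82 (SE 2.14). The part of normal liver in the differences of the Wnt targets was not tested.

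**Figure D3:**
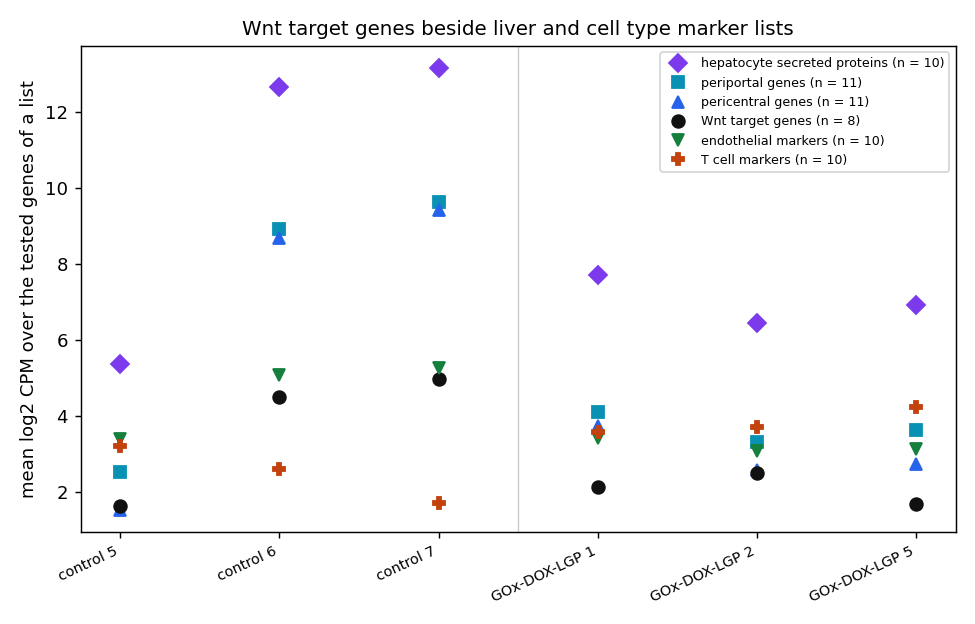
Mean log2 CPM over the tested genes of 6 lists in each library (n, genes averaged). The Wnt target genes (circles) stand at 4.50 and 4.98 in controls 6 and 7 and between 1.63 and 2.48 in the other 4 libraries, while hepatocyte secreted protein genes (diamonds) stand at 12.67 and 13.17 and between 5.36 and 7.72.

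Within a library, a ratio of counts is free of the scaling. Per 10000 counts of Alb, Glul had 1821 counts in control 5, 123 in control 6 and 77.8 in control 7, and 510, 2285 and 766 in treated tumors 1, 2 and 5. The libraries with the highest Glul level thus had the lowest ratio of Glul to Alb. Axin2 had a ratio of 11.2, 1.34 and 0.906 in controls and of 6.27, 44.8 and 2.94 in treated tumors. Of the 5 genes compared in this way, Tbx3 had the narrowest range of ratios, with 8.71, 3.7 and 2.84 in controls and 5.74, 20.7 and 10.8 in treated tumors. The ratio of Rnf43 was 87.1, 3.04 and 3.26 in controls beside 17, 51.5 and 37.8 in treated tumors, and that of Tcf7 was 234, 0.919 and 0.881 beside 36.8, 78.2 and 52. These ratios move with Alb, which itself spans 353 to 128244 CPM, and show unequal change rather than stability of a gene.

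**Figure D4:**
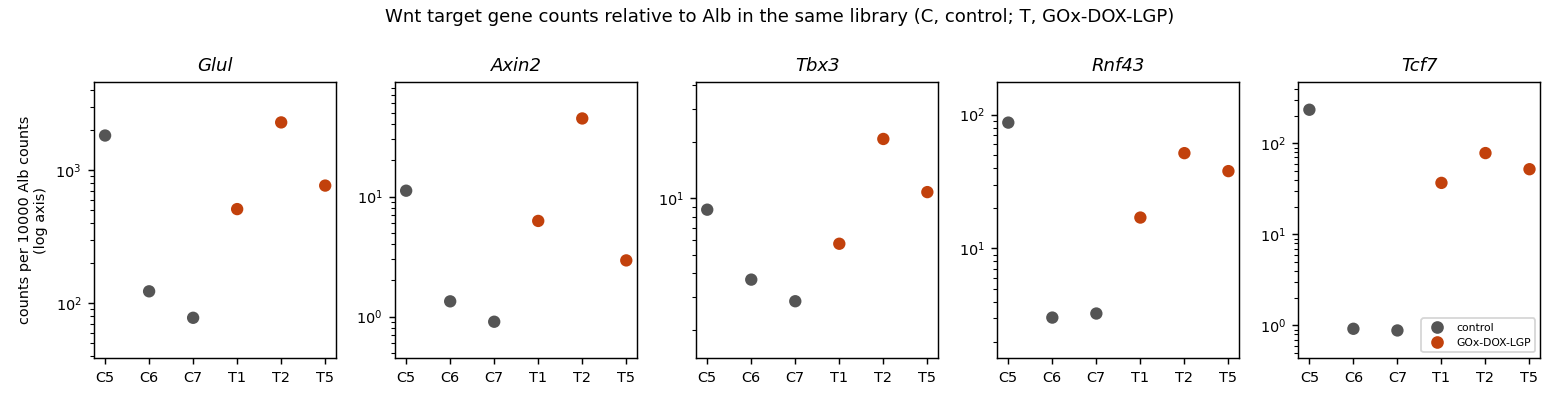
Counts of 5 Wnt target genes per 10000 counts of Alb in the same library (log axis) in control (grey) and GOx-DOX-LGP (orange) tumors. For Glul the ratio is 123 and 77.8 in controls 6 and 7 and between 510 and 2285 in the other 4 libraries.

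Upstream of beta-catenin, 9 of 19 Wnt ligand genes passed the filter, with a median log2 fold change of 0.32 (-0.19 without control 5), 4 negative and 5 positive, and with 0 at an unadjusted p under 0.05 in edgeR. The largest differences were those of Wnt7b (1.18, SE 1.11) and Wnt5b (-1.03, SE 0.49). Wnt7b, a canonical ligand, had 38.3, 16.2 and 0.646 CPM in controls, against 44.1, 25.8 and 55.5 CPM in treated tumors, so that control 5 was again within the treated range. Of the receptors, 10 of 12 Frizzled and LRP genes were tested, 7 with a negative and 3 with a positive log2 fold change, and 3 were lower at an unadjusted p under 0.05, beside 14.6% of all genes. Fzd8 (log2 fold change -2.44, SE 0.74) and Fzd4 (-2.03, SE 0.53) differed most, and for Fzd4, at 12.6 to 52.8 CPM in controls and 6.71 to 9.29 CPM in treated tumors, the groups did not overlap.

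R-spondins amplify the signal by sparing Frizzled from Rnf43 and Znrf3. Of 6 R-spondin and other receptor genes 3 were tested, and Rspo3 and Lgr4 were lower in every treated tumor than in every control, beside 8.31% of all genes tested. The other tested gene, Lgr6, went the other way (log2 fold change 0.85, SE 1.38, and 3.78, SE 0.84, without control 5). Rspo3, the R-spondin of the central vein, measured 2.46, 12.6 and 13.8 CPM in controls and 2.42, 1.86 and 1.72 CPM in treated tumors (log2 fold change -2.25, SE 0.67, edgeR adjusted p = 0.247, DESeq2 adjusted p = 0.0203). Its receptor Lgr4 measured 43.5, 100 and 144 CPM in controls and 37.9, 32.7 and 31.8 CPM in treated tumors (log2 fold change -1.49, SE 0.44, edgeR adjusted p = 0.247, DESeq2 adjusted p = 0.0434). Control 5 lay just above the treated tumors for both.

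Among 14 extracellular and membrane inhibitors 7 were tested, 6 of them with a positive log2 fold change and a median of 0.66. The secreted Frizzled-related gene Sfrp4 measured 0.746, 0.678 and 0.215 CPM in controls and 1.33, 3.58 and 3.49 CPM in treated tumors (log2 fold change 2.29, SE 0.61, edgeR adjusted p = 0.247, DESeq2 adjusted p = 0.0116). Dkk2, at 0.339 to 0.921 CPM in controls and 0.989 to 2.11 CPM in treated tumors, was also free of overlap (log2 fold change 1.32, SE 0.53). These were 2 of the 7, beside 8.87% of all genes tested. For both genes control 5 lay below the treated tumors, as controls 6 and 7 did. The counts were small, with 2 for Sfrp4 in control 7. Dkk2 had 21 counts in control 5 and 20 in treated tumor 1, a gap within counting error.

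All 15 genes of the destruction complex and of signal transduction were tested, with a median log2 fold change of 0.10 and a range of -0.42 to 0.87, and 0 had an unadjusted p under 0.05 in edgeR. Csnk1e (0.87, SE 0.52) and Dvl2 (0.67, SE 0.36) lay highest. The mRNA of Ctnnb1, beta-catenin itself, stood at 463, 196 and 209 CPM in controls and at 377, 322 and 271 CPM in treated tumors (log2 fold change 0.16, SE 0.42). Without control 5 its log2 fold change was 0.71 (SE 0.23, edgeR adjusted p = 0.0392). In that fit 6 of the 15 genes were called higher, beside 22.2% of all genes, and 1 lower, beside 25.5%. Of 12 nuclear partners, 2 were lower at an unadjusted p under 0.05, a share near the 14.6% of all genes. They were the repressor gene Tcf7l1 (-2.54, SE 0.79) and the corepressor gene Tle2 (-1.01, SE 0.40). Lef1, which acts beside TCF1, was low throughout, at 0.395 to 1.02 CPM in controls and 0.494 to 1.03 CPM in treated tumors. The 2 genes for Wnt lipidation and secretion, Porcn (0.13, SE 0.28) and Wls (0.65, SE 0.53), overlapped between the groups.

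**Figure D5:**
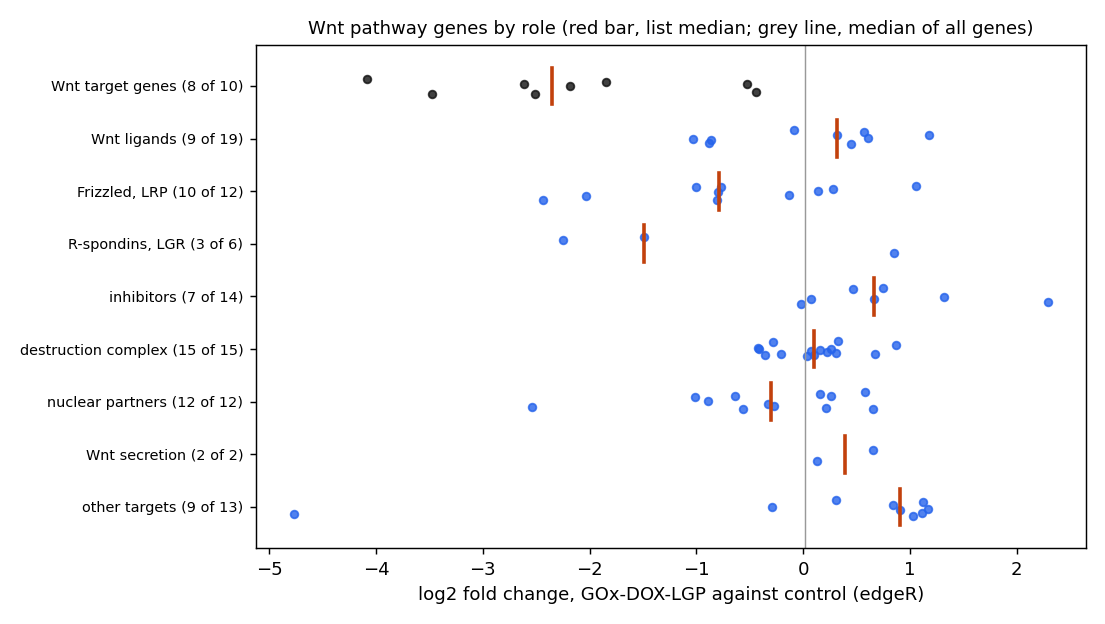
Log2 fold change from edgeR of each tested gene of the Wnt target genes (black) and of 8 lists of other pathway genes (blue), with list medians as red bars and the median of all genes as a grey line; labels give the genes tested of those listed. The Wnt target genes have a median of -2.35, and the destruction complex one of 0.10.

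Of 13 other genes known as targets of beta-catenin 9 were tested, with 7 positive and 2 negative log2 fold changes and a median of 0.91. Without control 5 the median was 1.67. In that fit 5 of 10 (Myc, Ccnd1, Cd44, Sox9 and Bmp4) were higher in treated tumors by edgeR's adjusted p, beside 22.2% of all genes. In the other direction 1 of 10 (Tnfrsf19) was lower, beside 25.5% of all genes. Myc, a driver of cell growth, measured 158, 21.5 and 7.43 CPM in controls, against 165, 100 and 141 CPM in treated tumors, so that control 5 lay within the treated range. Its log2 fold change was 1.12 (SE 1.05) on all 6 libraries and 3.25 (SE 0.48, edgeR adjusted p = 0.00165) without control 5. Tnfrsf19, a receptor gene of stem cell compartments, had 0.263, 14.1 and 24.4 CPM in controls and 0.26 to 0.84 CPM in treated tumors (log2 fold change -4.77, SE 1.5, edgeR adjusted p = 0.247, DESeq2 adjusted p = 0.00375). Bmp4, which encodes a bone morphogenetic protein, measured 25.1, 13.3 and 10.5 CPM in controls and 35.2 to 37.7 CPM in treated tumors, without overlap (log2 fold change 1.17, SE 0.35, edgeR adjusted p = 0.247, DESeq2 adjusted p = 0.0557).

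Of the markers of other cells, 0 passed the adjusted threshold of edgeR on all 6 libraries. T cell marker genes, 10 of 10 tested, had a median log2 fold change of 1.33, and 8 of them were higher in every treated tumor than in every control, beside 8.87% of all genes tested. Their summed level was 109, 67 and 36.4 CPM in controls and 141, 154 and 220 CPM in treated tumors, with none at 0. Cd3e, a chain of the T cell receptor complex, measured 5.49 to 11.3 CPM in controls and 17.7 to 29.5 CPM in treated tumors, and the log2 fold changes of Cd3d (1.73, SE 0.36) and Cd3g (1.52, SE 0.37) were also positive, while Tcf7 had a log2 fold change of -0.53. Endothelial marker genes had a median of -1.15 with 9 of 10 negative. Of these 10, 7 were lower in every treated tumor than in every control, beside 8.31% of all genes tested. At an unadjusted p under 0.05 in edgeR 7 were lower, beside 14.6%. Clec4g (-4.55, SE 1.45) and Stab2 (-3.29, SE 0.86), both sinusoidal, had the largest differences of the list. The general marker Pecam1 stood at -0.28 (SE 0.17, and 0.27 with library totals alone). A contrast of sinusoidal with other endothelial genes was not tested. Stellate cell and fibroblast genes had a median of -0.03 (0.51 with library totals alone), with 5 negative and 5 positive. Lrat (-3.80, SE 1.04) and Reln (-2.90, SE 0.72), which mark quiescent stellate cells, were the lowest of them. Without control 5 the median of these genes was 0.32. In that fit edgeR called 3 lower after adjustment, beside 25.5% of all genes, and 4 higher, beside 22.2%. Bile duct genes, of which Sox9 is also among the other targets, had a median of 0.44, with Spp1, the gene for osteopontin, at 1.2 (SE 1.34). Without control 5 that median was 1.87 and Spp1 stood at 4.19 (SE 0.58, edgeR adjusted p = 0.00122), since control 5 at 6838 CPM lay within the treated range of 4589 to 6936 CPM. The part of these cell types in the levels of the Wnt targets was not tested.

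Scaling moved the level of all genes together. The median log2 fold change over all genes was 0.02 with TMM, 0.51 with library totals alone and 0.19 with upper quartile factors, and the median over the 8 Wnt targets was -2.35, -1.49 and -2.11. The 6 targets with the larger differences kept a negative log2 fold change under each scaling. Relative to the median of all genes, Znrf3 stood at -0.47 with TMM and -0.37 with library totals, and Tcf7 at -0.55 and -0.47.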

How the data were processed

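Tumor RNA of 6 libraries was analysed from the raw counts per gene that the authors deposited, with 1 column per library. The authors also deposited a signal value per gene, made by dividing the counts by a size factor per library. The Supporting Information names TopHat and HTSeq for alignment and counting, whereas the submitters' processing notes name Trimmomatic 0.38, HISAT2 2.1.0 and featureCounts 2.0.0, so that the software behind the counts is uncertain. Genome build, annotation release and the use of strand are not given in the sources used here. Positions are from GENCODE M21 on GRCm38, which holds 55450 of 55536 identifiers, and may differ from the build that was used.

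Raw counts were filtered with filterByExpr, given TMM factors and tested by quasi-likelihood in edgeR 4.0.16 (R 4.3.3), with Benjamini-Hochberg adjustment over 15374 genes, a threshold of 0.05 and no covariates. DESeq2 1.42.0 and limma 3.58.1 (voom with sample quality weights) were alternatives, besides other scalings, filters and thresholds and the omission of each library. A prior count of 2 went into log2 CPM, permutation tests were exact and two-sided, and the test across genes was tested on simulated counts. Total counts were 15529940 to 18401178 per library. Lgr5 and Sp5, dropped by the filter, were taken from a fit that kept genes with at least 1 count. Sequence shared between genes was counted over stretches of 50 bases of GENCODE transcripts. Figures were drawn with matplotlib 3.10.9.

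The targets and all gene lists were chosen with earlier results of these data known. Named genes are the 10 targets, the 2 largest absolute log2 fold changes of each other list, any listed gene with an adjusted p under 0.05, Alb, Cd3e, Pecam1, Ctnnb1 and Lef1. Lgr6, and Wnt2 and Wnt9b under the other observations, fall outside this rule, and so do Sox9, Myc, Ccnd1 and Cd44, chosen after their values were seen. A gene that the rule names is not reported here.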

Additional observations from a re-analysis of the deposited data

How the results depend on the processing

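In edgeR on all 6 libraries, 0 of 15374 genes, 0 of 8 Wnt targets and 0 of 136 genes of the other lists had an adjusted p under 0.05. These counts were 1739, 4 and 52 with DESeq2, which adjusted 16471 genes and 9 targets and fitted 161 genes of the other lists. With limma voom, on the same genes as edgeR, they were 9254, 7 and 107. At an unadjusted p under 0.05 in edgeR they were 2685, 4 and 56. Leaving out each library in turn, they ran from 0 to 7745, from 0 to 8 and from 0 to 94. The upper values all came from the fit without control 5, which tested 16249 genes, 9 targets and 141 genes of the other lists. All these counts were 0 with the other scalings and filters and at an adjusted p under 0.1. The fit without controls 6 and 7, chosen after seeing the data, leaves control 5 alone, so that only its log2 fold changes are given. Without those controls the log2 fold changes of Axin2 (2.02), Glul (0.86), Tbx3 (2.02), Notum (0.77) and Rnf43 (0.27) reversed. With library totals alone those of Znrf3 (0.14), Tcf7 (0.04) and Pecam1 (0.27) did, and with voom those of Porcn (-0.19) and Lef1 (-0.68). Leaving out each library, the log2 fold change ran from -0.16 to 1.03 for Wls, -0.02 to 0.28 for Porcn, -0.06 to 0.71 for Ctnnb1 and -0.04 to 0.66 for Lef1. Of 118 alternative values for the log2 fold changes of the Wnt targets, 92 kept direction and side of the threshold, 19 kept the direction and passed the threshold, and 7 reversed; the cause was not tested. Scaling by the deposited size factors moved the log2 ratio of mean levels by less than the spread of the controls for each target. The share of promoter windows with the motif was 3.73% with 7 letters and 16% with the core of 6. Sp5 had a value only without the filter and in DESeq2. No paired analysis was possible because the groups share only the replicate number 5.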

Other observations

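The R-spondin receptors differed from each other in pattern, and Lgr6 was noticed after its values had been seen. Lgr6 had 463 CPM in control 5, 40.8 in control 6 and 4.41 in control 7, against 353, 272 and 291 CPM in treated tumors 1, 2 and 5, the reverse of Lgr5 across libraries. Per kilobase of exon, Lgr6 stood at 67.6, 5.95 and 0.644 CPM per kb in controls and between 39.7 and 51.6 in treated tumors, whereas Lgr5 stood at 0.0299, 0.636 and 0.902 in controls and between 0.0289 and 0.043 in treated tumors. Lgr6 was thus above Lgr5 in every library except control 7, where Lgr5 was the higher. The group difference of Lgr6 was 0.85 on the log2 scale (standard error 1.38, adjusted p = 0.725 from edgeR), and without control 5 it was 3.78 (standard error 0.84, adjusted p = 0.00926 from edgeR).

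The ligand genes Wnt2 and Wnt9b, known from endothelial cells of the liver, were also chosen after their values had been seen. Wnt2 had 1, 30 and 31 counts in controls 5, 6 and 7 and 2, 4 and 0 counts in treated tumors 1, 2 and 5 (adjusted p = 0.0464 from DESeq2). Wnt9b had 0, 6 and 6 counts in controls and 2, 1 and 2 counts in treated tumors. Both fell under the filter on low counts and were not tested in edgeR on all 6 libraries.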
